A study of Rattus norvegicus with 8 samples.

Results

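Adhesive and matricellular proteins of the extracellular matrix were followed at the transcript level in rat Achilles tendon through a set of 9 genes named by symbol, of which 8 were listed among the 32883 genes of the count table. These were tenascin C (*Tnc*, ENSRNOG00000058645), thrombospondins 1, 2 and 3 (*Thbs1*, ENSRNOG00000045829; *Thbs2*, ENSRNOG00000010529; *Thbs3*, ENSRNOG00000059903), SPARC or osteonectin (*Sparc*, ENSRNOG00000012840), the SPARC relative hevin (*Sparcl1*, ENSRNOG00000015093), periostin (*Postn*, ENSRNOG00000012660) and fibronectin (*Fn1*, ENSRNOG00000014288). Tenascin X (*Tnxb*) was not analysed here. All 8 genes passed the filter on low counts and stood among the 13937 genes tested.

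The samples were right Achilles tendons of 8 wild-type male Sprague-Dawley rats, 8 to 10 weeks old, with 1 poly(A) RNA library per rat. The 4 rats of the 12 h p.r. group ran on a treadmill for 1 h and were killed 12 hours after running, and the 4 naïve control (NC) rats rested in their cages and were killed at the same time. Libraries held between 7350509 and 12951397 reads assigned to genes. The comparison asks how expression in healthy tendon differed 12 hours after a single run from that at rest, and a whole tendon holds several cell types.

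Matricellular proteins are secreted into the matrix, where they bind collagen, growth factors and cell-surface receptors and tune how cells adhere, rather than forming the load-bearing fibrils themselves. Fibronectin is the adhesive glycoprotein that cells grip through integrins and assemble into fibrils of its own, and it also binds collagens, tenascin C, periostin and thrombospondin 1. In tendon several of these genes are known to respond to mechanical load, and SPARC is a collagen-binding protein needed for normal collagen fibrils.

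None of the 8 genes differed between 12 h p.r. and NC after adjustment over all genes tested (edgeR quasi-likelihood test with Benjamini-Hochberg adjustment, 0 of 8 genes). Among all 13937 genes 0.00718 percent passed the same threshold, which is 1 gene. The log2 fold change was above 0 in 2 of the 8 genes, *Thbs1* and *Thbs2*, and below 0 in 6, with a median of −0.19 over the 8 against 0.02 over all genes tested. At an unadjusted p under 0.05, *Postn* and *Thbs3* were lower at 12 h p.r. and no gene of the set was higher. The count was 0 without NC replicate 1, 3 without NC replicate 2, and 1 without 12 h p.r. replicate 1, 2 or 4 or without NC replicate 4. In these fits the share of all genes lay between 6.28 percent (without NC replicate 4) and 10.2 percent (without 12 h p.r. replicate 2). It was 8.96 percent without NC replicate 2. With all 8 rats, the 2 of 8 stand where 9.51 percent of all genes passed in either direction, 4.08 percent as lower and 5.44 percent as higher. The 4 values of each group did not overlap for *Sparcl1* and *Thbs3*, both lower at 12 h p.r., where 6.06 percent of all genes tested did not overlap, 2.55 percent as lower and 3.52 percent as higher. Under DESeq2, a second count model, *Postn*, *Sparcl1* and *Thbs3* had an unadjusted p under 0.05, where 6.5 percent of all genes did, and 0 of the 8 passed after adjustment, where 0.685 percent of all genes did.

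**Figure D1:**
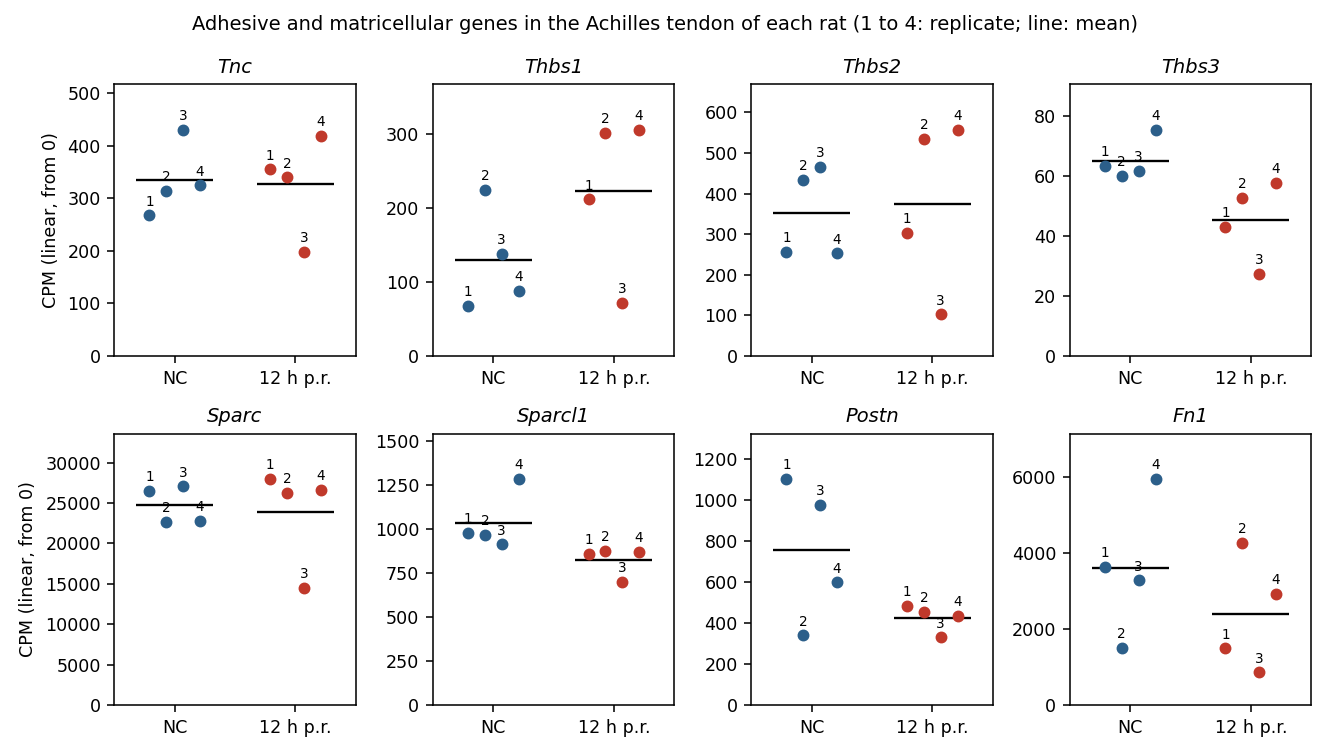
Level of each gene in each rat, in CPM (linear axis from 0), for NC (blue) and 12 h p.r. (red), numbered by replicate, with a line at the group mean. The groups do not overlap for *Thbs3* and *Sparcl1*, and 12 h p.r. replicate 3 is the lowest of the run rats in all 8 panels.

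Tenascin C is a hexameric glycoprotein that counteracts firm attachment of cells to fibronectin and is enriched where tendon is compressed or joins muscle. *Tnc* stood at 355, 340, 199 and 419 CPM in 12 h p.r. replicates 1 to 4 and at 268, 315, 431 and 325 CPM in NC replicates 1 to 4, CPM (counts per 1000000 reads) being scaled by the trimmed mean. The groups overlapped almost fully, with means of 328 ± 92.8 CPM at 12 h p.r. and 334 ± 68.8 CPM in NC (SD, n = 4 each). *Tnc* had a log2 fold change of −0.03 (SE 0.23, 95% interval −0.55 to 0.50), adjusted p = 0.982 by edgeR with Benjamini-Hochberg adjustment.

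Thrombospondins 1 and 2 are trimeric proteins that bind the receptor CD47, and thrombospondin 1 also activates latent TGF-β. *Thbs1* was measured at 211, 302, 71.9 and 306 CPM in the 4 run rats and at 67.7, 224, 138 and 88.4 CPM in the 4 NC rats. Of the run rats 3 lay at or above 211 CPM and 1 lay at 71.9 CPM, close to the lowest NC rat, so the groups overlapped. The means were 223 ± 109.5 CPM at 12 h p.r. and 130 ± 69.6 CPM in NC (SD, n = 4 each). This was the highest log2 fold change of the set, 0.78 (SE 0.48, 95% interval −0.31 to 1.88), with an adjusted p of 0.648 by edgeR with Benjamini-Hochberg adjustment and p = 0.257 in the 2-sided exact permutation test over the 70 splits of the rats. Without 12 h p.r. replicate 3 the difference was 1.08 (SE 0.37), edgeR unadjusted p = 0.0173 and adjusted p = 0.404 with Benjamini-Hochberg adjustment. Without NC replicate 2, the highest NC rat, it was 1.18 (SE 0.48), edgeR unadjusted p = 0.0398.

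*Thbs2*, whose product is needed for orderly collagen fibrils in connective tissue, was measured at 303, 535, 103 and 557 CPM in the run rats and at 257, 433, 466 and 252 CPM in the NC rats. The run rats lay on both sides of the whole NC range, and the means were 375 ± 214 and 352 ± 113 CPM (SD, n = 4 each). For *Thbs2* the log2 fold change was 0.09 (SE 0.47, 95% interval −0.96 to 1.14). The sign of this value depended on single rats, since it lay between −0.17 and 0.40 when 1 rat at a time was left out.

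*Thbs3* encodes a thrombospondin of the pentameric group, to which cartilage oligomeric matrix protein also belongs. It was measured at 43.2, 52.8, 27.5 and 57.7 CPM in the run rats and at 63.4, 60.2, 61.7 and 75.5 CPM in the NC rats, so that every run rat lay below every NC rat. The means were 45.3 ± 13.3 CPM at 12 h p.r. and 65.2 ± 7.00 CPM in NC (SD, n = 4 each). The log2 fold change was −0.52 (SE 0.21, 95% interval −0.99 to −0.06), unadjusted p = 0.0312 and adjusted p = 0.486 by edgeR with Benjamini-Hochberg adjustment. The exact permutation test gave p = 0.0286, the smallest value that 4 rats against 4 allow. Without 12 h p.r. replicate 3 the log2 fold change was −0.35 (SE 0.13), edgeR unadjusted p = 0.0242. The same p was above 0.05 without 12 h p.r. replicate 1 (0.0644), NC replicate 1 (0.0518) or NC replicate 4 (0.0823).

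SPARC binds collagen and limits how firmly cells spread on it. *Sparc* took 2.38% ± 0.721 of all assigned reads at 12 h p.r. and 2.50% ± 0.255 in NC (SD, n = 4 each). It was measured at 27964, 26288, 14545 and 26655 CPM in the run rats and at 26540, 22669, 27073 and 22773 CPM in the NC rats. Apart from 12 h p.r. replicate 3, the rats of both groups shared a narrow range, and the log2 fold change was −0.05 (SE 0.26, 95% interval −0.63 to 0.53). Without that rat it was 0.12 (SE 0.19).

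*Sparcl1* encodes hevin, an anti-adhesive relative of SPARC. It was measured at 861, 876, 699.6 and 873 CPM in the run rats and at 980, 968, 913 and 1284 CPM in the NC rats, again with every run rat below every NC rat. The gap between the groups was small, from 876 CPM in the highest run rat to 913 CPM in the lowest NC rat. The means were 827 ± 85.4 CPM at 12 h p.r. and 1036.5 ± 168 CPM in NC (SD, n = 4 each), a log2 fold change of −0.33 (SE 0.15, 95% interval −0.67 to 0.02). Adjusted p was 0.547 by edgeR with Benjamini-Hochberg adjustment, and the exact permutation p was 0.0286. *Sparcl1* was the steadiest gene of the set, with a within-group SD of 0.19 on the log2 scale.

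Periostin is a fasciclin-domain protein that promotes collagen cross-linking and is secreted by fibroblasts under load. *Postn* was measured at 486, 455, 331 and 437 CPM in the run rats, within a narrow range, and at 1104, 341, 976 and 600 CPM in the NC rats, which were spread widely. NC replicate 2 lay among the run rats and the other NC rats lay above all of them. The means were 427 ± 67.4 CPM at 12 h p.r. and 756 ± 349 CPM in NC (SD, n = 4 each). The log2 fold change, −0.82 (SE 0.33, 95% interval −1.57 to −0.07), was the lowest of the set, with unadjusted p = 0.0348 and adjusted p = 0.492 by edgeR with Benjamini-Hochberg adjustment. The exact permutation test gave p = 0.171. The edgeR unadjusted p of *Postn* was above 0.05 without 12 h p.r. replicate 2, 3 or 4 (0.0550, 0.0733 and 0.0636) and without NC replicate 1 or 3 (0.111 and 0.0924), and was 0.00182 without NC replicate 2.

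*Fn1* was measured at 1500, 4271, 863 and 2937 CPM in the run rats and at 3642, 1513, 3286 and 5949 CPM in the NC rats. Within the run group replicate 3 was the lowest and replicate 2 the highest, within NC replicate 2 was the lowest and replicate 4 the highest, and the groups overlapped. The means were 2393 ± 1523 CPM at 12 h p.r. and 3597 ± 1824 CPM in NC (SD, n = 4 each). Its log2 fold change was −0.59 (SE 0.53, 95% interval −1.79 to 0.61), adjusted p = 0.757 by edgeR with Benjamini-Hochberg adjustment. *Fn1* was the most variable gene of the set, with a within-group SD of 0.93 on the log2 scale, above that of 95.5 percent of the genes tested.

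**Figure D2:**
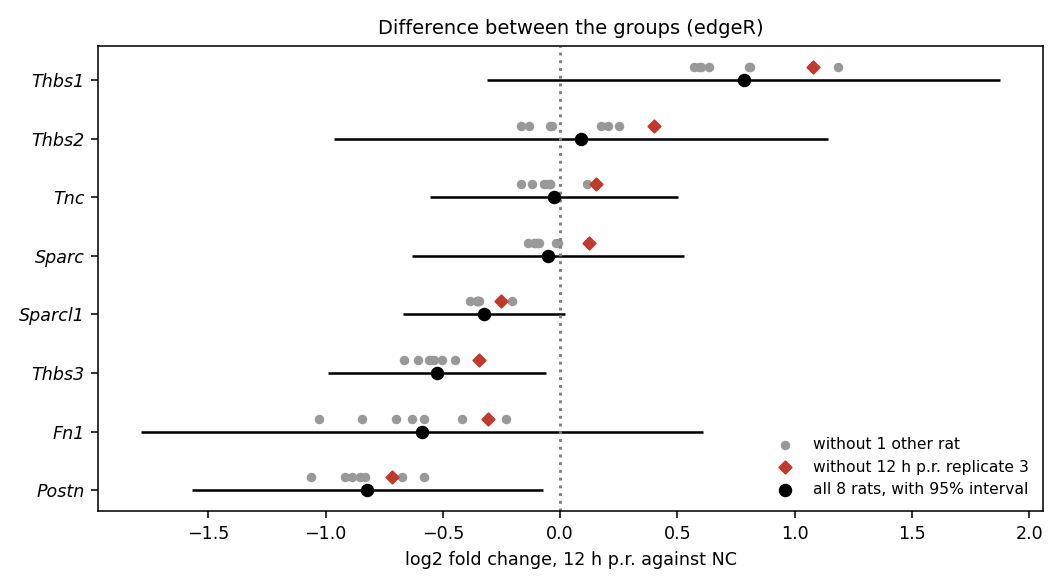
Log2 fold change of each gene, 12 h p.r. against NC (edgeR), with its 95% interval for all 8 rats (black) and the value with 1 rat left out (grey, or a red diamond for 12 h p.r. replicate 3). The intervals of *Postn* and *Thbs3* lie below 0 and all others span 0. Points of *Thbs2*, *Tnc* and *Sparc* fall on both sides of 0.

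The promoters of 6 of the 8 genes were matched by symbol in RefSeq (assembly GRCr8, another build than that of the counts), as the 250 bases before the annotated start, 5′ to 3′ on the gene's strand. The printed windows are those of *Thbs1* and *Postn*, which had the highest and the lowest log2 fold change, and those of *Sparcl1* and *Thbs3*, whose groups did not overlap. Capitals mark matches, on either strand, to the letters TATAAA of the core promoter element of that name, to the element known as CCAAT box, to the GC box with the letters GGGCGG, or to CATTCC, the core letters bound by TEAD factors, and no match overlapped another. The windows lie at chr3:125510000-125510249 (plus strand) for *Thbs1*, chr2:140677811-140678060 (plus) for *Postn*, chr14:5937234-5937483 (plus) for *Sparcl1* and chr2:176919349-176919598 (plus) for *Thbs3*.
Thbs1: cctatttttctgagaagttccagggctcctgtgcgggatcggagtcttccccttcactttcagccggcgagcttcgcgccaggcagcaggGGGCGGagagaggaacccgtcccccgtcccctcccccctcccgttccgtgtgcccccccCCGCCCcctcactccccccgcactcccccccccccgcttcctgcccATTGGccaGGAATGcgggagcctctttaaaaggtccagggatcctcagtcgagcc
Postn: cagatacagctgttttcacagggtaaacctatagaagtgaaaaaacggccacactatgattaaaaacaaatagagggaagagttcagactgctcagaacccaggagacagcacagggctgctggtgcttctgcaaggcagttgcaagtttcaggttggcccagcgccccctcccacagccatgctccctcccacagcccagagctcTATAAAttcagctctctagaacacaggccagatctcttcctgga
Sparcl1: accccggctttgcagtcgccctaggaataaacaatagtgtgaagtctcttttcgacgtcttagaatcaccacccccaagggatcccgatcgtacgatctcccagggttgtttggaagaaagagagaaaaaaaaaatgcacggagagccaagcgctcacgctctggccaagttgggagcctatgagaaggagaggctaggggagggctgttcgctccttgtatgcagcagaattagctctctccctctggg
Thbs3: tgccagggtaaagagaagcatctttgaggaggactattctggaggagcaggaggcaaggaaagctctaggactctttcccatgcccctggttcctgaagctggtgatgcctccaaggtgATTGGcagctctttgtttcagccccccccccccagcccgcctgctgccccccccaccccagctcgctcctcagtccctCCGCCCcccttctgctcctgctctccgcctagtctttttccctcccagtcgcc

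The *Thbs1* window held GC boxes on both strands, a CCAAT box on the minus strand 55 to 51 bases before the start and the TEAD letters on the minus strand 47 to 42 bases before it, and was 67.6% G or C. The *Postn* window held a TATA box 44 to 39 bases before the start and no GC box, and was 50.8% G or C. The *Thbs3* window held a CCAAT box and a GC box, both on the minus strand, and the *Sparcl1* window held none of the 4 motifs. Over the 33469 RefSeq windows of the same length, 12.9 percent held TATAAA, 34.0 percent the CCAAT box, 30.5 percent GGGCGG and 12.1 percent CATTCC, and the median G or C content was 51.2%. *Sparc* and *Thbs1* were the 2 of the 6 matched genes with CATTCC. A match of letters is a description of the window and was not tied to any difference between the groups.

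Levels of different genes were compared per length, in FPKM, which scales reads by gene length and library size. In NC rats *Sparc* stood at 11968 ± 1143 FPKM (SD, n = 4), the 5th highest of 22250 protein-coding genes. Next came *Fn1* (427 ± 217 FPKM), *Sparcl1* (378 ± 61.4) and *Postn* (233 ± 108), all within the top 320 genes. *Thbs2* (59.7 ± 19.1 FPKM), *Tnc* (46.2 ± 9.44), *Thbs1* (35.3 ± 19.0) and *Thbs3* (20.6 ± 2.23) were lower.

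Neighbours in this order were compared within rats by a 2-sided exact sign-flip permutation test over 8 rats, adjusted over 7 pairs by Benjamini-Hochberg. The step from *Sparc* to *Fn1* was 38.2-fold as a geometric mean of FPKM ratios over all 8 rats, and *Sparc* was higher in 8 of 8 rats (exact permutation test, adjusted p = 0.0182). *Sparcl1* exceeded *Postn* 2.02-fold and *Postn* exceeded *Thbs2* 3.02-fold, each in 8 of 8 rats with the same adjusted p. *Thbs1* exceeded *Thbs3* 2.43-fold in 7 of 8 rats (exact permutation test, adjusted p = 0.0410). In NC alone *Thbs1* was higher in 3 of 4 rats and the ranges overlapped, with 18.5 against 20.1 FPKM in NC replicate 1 and 24.1 against 23.9 FPKM in NC replicate 4. *Fn1* and *Sparcl1* (0.900-fold, adjusted exact permutation p = 0.641), *Thbs2* and *Tnc* (1.23-fold, 0.208) and *Tnc* and *Thbs1* (1.09-fold, 0.641) did not differ beyond their spread.

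**Figure D3:**
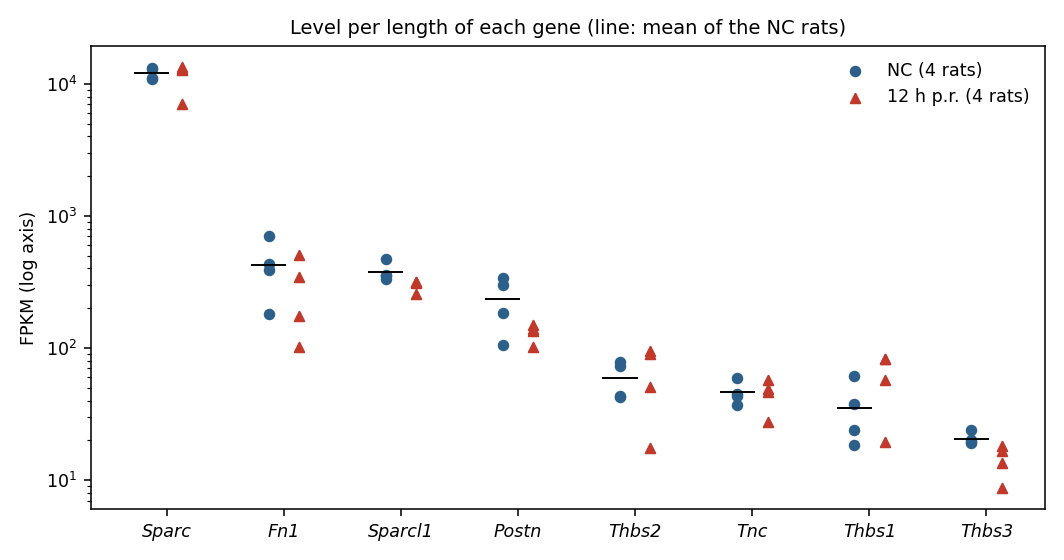
FPKM (log axis) of each gene in each NC rat (blue circles) and each 12 h p.r. rat (red triangles), ordered by the NC mean (line). The NC mean of *Sparc* is 11968 FPKM and that of the next gene, *Fn1*, is 427 FPKM, and *Fn1*, *Thbs1* and *Thbs2* spread most between rats of a group.

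Spread between rats of the same group was wide for this set. The within-group SD on the log2 scale exceeded the median of all genes tested, 0.23, in 7 of the 8 genes. It was 0.93 for *Fn1*, 0.88 for *Thbs1*, 0.87 for *Thbs2* and 0.57 for *Postn*, and between 0.19 and 0.39 for *Tnc*, *Thbs3*, *Sparc* and *Sparcl1*. One tendon, 12 h p.r. replicate 3, was the lowest of the run rats in 8 of the 8 genes and the lowest of all 8 rats in 7, the exception being *Thbs1*, which was lower in NC replicate 1.

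The tissue label was checked against fixed marker lists. All 10 tenocyte markers were expressed above the filter, and their mean log2 CPM ranged from 9.04 to 9.69 in NC and from 8.66 to 9.85 at 12 h p.r., the lowest value being that of 12 h p.r. replicate 3. In that tendon the 10 skeletal muscle markers tested summed to 57200 CPM and averaged 11.40 on the log2 CPM scale, against 6.67 to 7.75 in the other run rats and 6.10 to 9.72 in NC. Its leukocyte marker mean was also the lowest of all rats, 4.93. The part of tissue composition in the values of the 8 genes was not tested, and in whole tendon fewer cells of a type and less RNA per cell cannot be told apart.

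The rat lowest in *Fn1* in each group was also the lowest in leukocyte markers. The mean log2 CPM of the 8 leukocyte markers was 5.17 in NC replicate 2 and 4.93 in 12 h p.r. replicate 3, against 5.81 to 6.29 in the other 6 rats. The relation was not strict, since 12 h p.r. replicate 1 had *Fn1* at 1500 CPM and a leukocyte mean of 5.86. With the leukocyte marker mean as a covariate, chosen after seeing the data, the log2 fold change was −0.30 (SE 0.30) for *Fn1* and −0.51 (SE 0.25) for *Postn*. The other marker covariates moved *Fn1* the opposite way, to −0.98 (SE 0.53) with the tenocyte mean and −0.71 (SE 0.34) with the skeletal muscle mean, and gave −0.87 (SE 0.32) and −0.85 (SE 0.33) for *Postn*. *Thbs1* was at 0.42 (SE 0.34) with the tenocyte mean, 0.63 (SE 0.53) with the muscle mean and 0.79 (SE 0.50) with the leukocyte mean. In the same order *Thbs3* was at −0.65 (SE 0.16), −0.58 (SE 0.13) and −0.45 (SE 0.17). Its edgeR unadjusted p was 0.00363, 0.00212 and 0.0262, and 0.364, 0.252 and 0.476 after Benjamini-Hochberg adjustment. *Sparcl1* was at −0.34 (SE 0.16), −0.33 (SE 0.11) and −0.28 (SE 0.15). Its edgeR unadjusted p was under 0.05 only with the muscle mean (0.0180, adjusted 0.357). None of the 8 marker means reached 0.05 between the groups, the smallest exact permutation p being 0.0857 for pericyte and smooth muscle markers. Single markers did differ at an edgeR unadjusted p under 0.05, where 9.51 percent of all genes passed. These were 2 of 10 tenocyte, 2 of 7 endothelial and 2 of 7 Schwann cell markers, and 0 of them passed after adjustment. Cartilage and bone markers averaged 6.44 in NC replicate 3 and 5.14 in 12 h p.r. replicate 1, against 1.19 to 3.09 in the others. Without both of these rats 0 of the 8 genes had an unadjusted p under 0.05 (edgeR), where 7.63 percent of all genes did. *Postn* was then at −0.74 (SE 0.40) and *Thbs3* at −0.53 (SE 0.27).

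**Figure D4:**
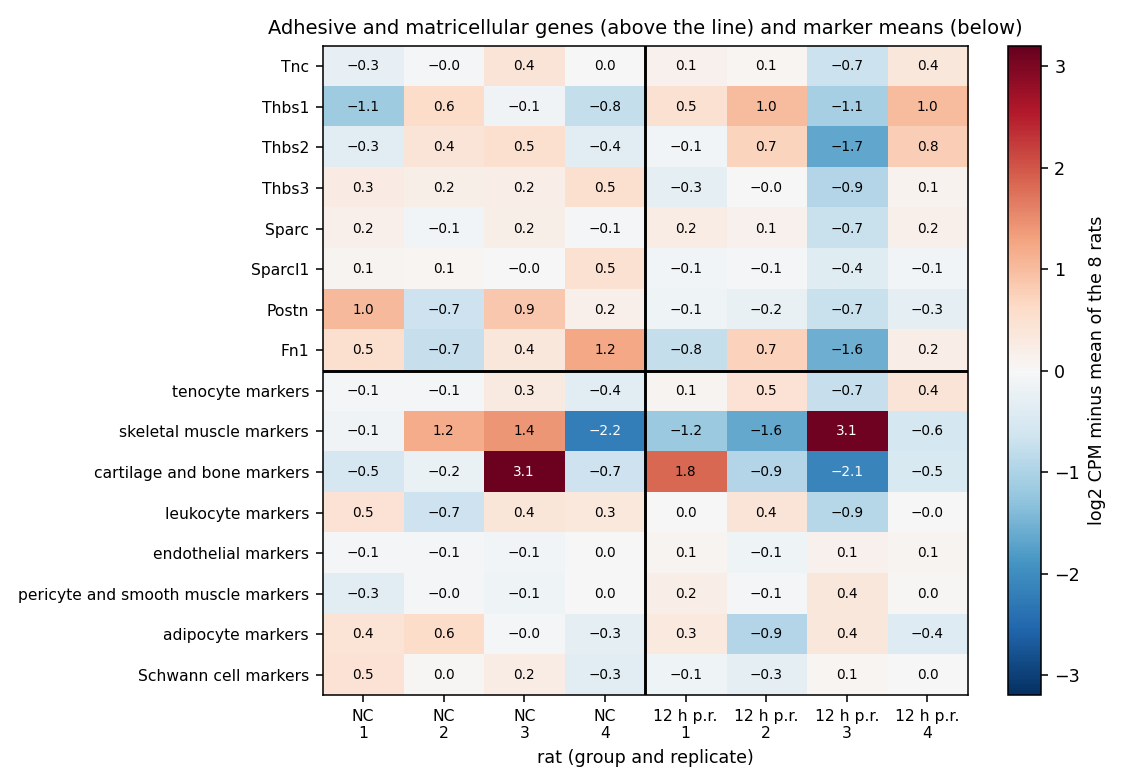
Log2 CPM of each gene (above the line) and mean log2 CPM of each marker list (below), per rat, as the difference from the mean of the 8 rats. 12 h p.r. replicate 3 is below the mean in all 8 genes, highest in skeletal muscle markers and lowest in tenocyte and leukocyte markers.

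Across the 8 rats, 26 of the 28 pairs of genes had a Pearson r above 0 on log2 CPM, with a median of 0.53. This rested on 1 tendon, since the median was −0.10 without 12 h p.r. replicate 3. By an exact permutation test 7 pairs had an unadjusted p under 0.05 and 0 of 28 pairs passed after Benjamini-Hochberg adjustment of Pearson's r. None of the 28 had an unadjusted p under 0.05 once the 2 rats farthest from the median of the x gene were left out. That leaves 6 rats, and the lowest exact permutation p was then 0.05, for *Sparc* with *Sparcl1* (r = −0.94).

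*Sparcl1* and *Thbs3* followed each other most closely by rank (r = 0.88, exact permutation p = 0.00722, adjusted 0.0778; rho = 0.95, p = 0.00114, adjusted 0.0319). Their r was 0.81 without 12 h p.r. replicate 3, 0.74 without the 2 farthest rats and 0.76 as deviations from the group means, both genes being lower at 12 h p.r. without overlap. *Thbs1* and *Thbs2* also kept their r, 0.80 over 8 rats (exact permutation p = 0.0116, adjusted 0.0809; rho = 0.86, p = 0.0107, adjusted 0.15), 0.82 without 12 h p.r. replicate 3 and 0.75 without the 2 farthest rats. As deviations from the group means it was 0.93. *Tnc* and *Thbs2* had r = 0.88 (exact permutation p = 0.00833, adjusted 0.0778; rho = 0.74, p = 0.0458, adjusted 0.214), which was 0.65 without 12 h p.r. replicate 3 and 0.64 without the 2 farthest rats.

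The relations of *Sparc* weakened or turned without that tendon. With *Tnc* its r was 0.82 over 8 rats (exact permutation p = 0.0253, adjusted 0.118; rho = 0.79, p = 0.0279, adjusted 0.214), 0.38 without 12 h p.r. replicate 3 and 0.27 without the 2 farthest rats. With *Thbs2* it was 0.81 (exact permutation p = 0.0352, adjusted 0.141; rho = 0.48, p = 0.243, adjusted 0.567), 0.20 and 0.40. Its r with *Thbs3* was 0.68 over 8 rats (exact permutation p = 0.120, adjusted 0.269; rho = 0.05, p = 0.935, adjusted 0.977) and −0.66 without 12 h p.r. replicate 3. With *Sparcl1* it was 0.40 (exact permutation p = 0.252, adjusted 0.372; rho = −0.12, p = 0.793, adjusted 0.977) and −0.75 without that rat. Without that rat r stayed above 0 for 4 of the 7 pairs of *Sparc*, those with *Tnc*, *Postn* (0.36), *Thbs1* (0.19) and *Thbs2*. It was below 0 for 3, those with *Thbs3*, *Sparcl1* and *Fn1* (−0.14). Without the 2 farthest rats the r of *Sparc* was −0.80 with *Thbs3* and −0.94 with *Sparcl1*.

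**Figure D5:**
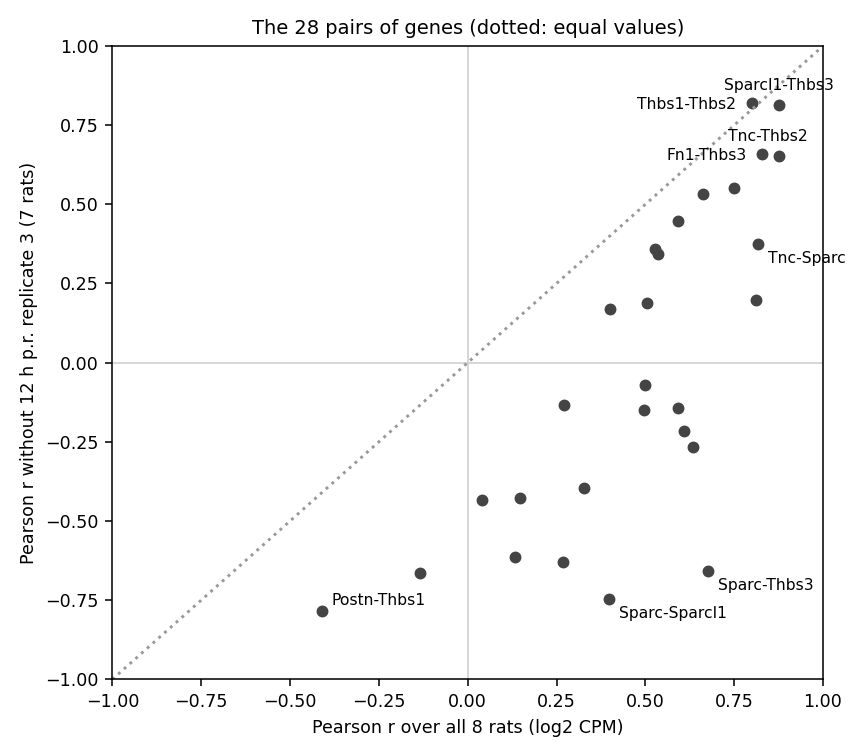
Pearson r of log2 CPM for each of the 28 pairs of genes, over all 8 rats (x axis) and without 12 h p.r. replicate 3 (y axis), with a dotted line at equal values. Nearly all points fall below the line, and *Thbs1* with *Thbs2* and *Sparcl1* with *Thbs3* stay near 0.8 on both axes.

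Ratios of 1 gene to another within a rat were compared for all 28 pairs, and the lowest adjusted p was 0.4 (exact permutation test, Benjamini-Hochberg). The 2 ratios whose groups did not overlap are given as a description, and no share over all pairs of genes was computed. The levels of *Thbs1* and of *Thbs2* each overlapped between the groups. The log2 ratio of *Thbs1* to *Thbs2* in CPM was −0.68 ± 0.19 at 12 h p.r. and −1.54 ± 0.43 in NC (SD, n = 4 each), with no overlap between the groups, a difference of 0.85. The exact permutation p was 0.0286, the smallest possible, and 0.4 after Benjamini-Hochberg adjustment over the 28 ratios. Of the 28 ratios 1 other did not overlap, that of *Sparc* to *Thbs3*, which was higher at 12 h p.r. by 0.48 on the log2 scale. For *Thbs1* to *Thbs3* the log2 ratio was 2.15 ± 0.52 at 12 h p.r. and 0.84 ± 0.85 in NC (SD, n = 4 each), exact permutation p = 0.0571.

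For each gene the 3 genes with the most similar pattern over the 8 rats were taken from 9541 genes at 10 CPM or more, as a description in which every point shares its library. For *Fn1* these were *Trem2*, *Htra4* and *Il18* (r = 0.99 each), *Trem2* being a receptor of macrophages and *Il18* a cytokine, and r stayed at 0.98 without 12 h p.r. replicate 3. For *Postn* they were *Myoc*, *Ctsc* (r = 0.97 each) and *Apbb1ip* (0.96). *Sparc* ran closest to *Stt3a* (r = 0.99), *Kdelr3* (0.98) and *Mrc2* (0.97), and these were 0.88, 0.82 and 0.85 without 12 h p.r. replicate 3. The 3 encode a subunit of the oligosaccharyltransferase, a receptor that retrieves endoplasmic reticulum proteins and a collagen uptake receptor. *Thbs2* ran closest to *Itga10* and *Slc29a1* (r = 0.99 each) and *Plod2* (0.98), a collagen lysyl hydroxylase. *Thbs1* ran closest to *Slc39a13*, *Nab2* (r = 0.97 each) and *Eps8l2* (0.95).

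*Tnc* ran closest to *Spindoc* (r = 0.97), *Acan* (0.96), which encodes the proteoglycan aggrecan, and *Dhx8* (0.95). Without 12 h p.r. replicate 3 these were 0.93, 0.88 and 0.90. *Thbs3* ran closest to *Adarb1*, *Ccn2* and *Slc41a2* (r = 0.96 each), and r with *Ccn2* was 0.85 without 12 h p.r. replicate 3. The nearest genes to *Sparcl1* were *Ripk1*, *Tmem67* and *Fbh1* (r = 0.96 each).

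A wider list of 47 relatives and receptors of these proteins had 45 genes in the tables and 41 tested. After adjustment 0 of 41 passed (edgeR with Benjamini-Hochberg adjustment), 20 had a log2 fold change above 0 and 21 below, and the median was −0.01. At an unadjusted p under 0.05, 5 genes (12.2 percent) passed in edgeR, where 9.51 percent of all genes did. *Thbs4* was higher in the run rats, and *Ccn2*, *Ccn3*, *Fbln5* and *Sdc4* were lower. This count was 10 without 12 h p.r. replicate 3, 8 without NC replicate 3, 3 without NC replicate 1 and 2 without NC replicate 4. The share of all genes moved as well. With 1 rat left out it lay between 6.28 percent (without NC replicate 4) and 11.1 percent (without 12 h p.r. replicate 3). It was 9.31 percent without NC replicate 3.

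Among the thrombospondins, *Thbs4*, a pentameric thrombospondin of tendon and muscle, was measured at 1095, 1359, 676 and 1285 CPM in the run rats and at 834, 701, 881 and 582 CPM in NC. Except for replicate 3 the run rats lay above all NC rats, with a log2 fold change of 0.56 (SE 0.23), edgeR unadjusted p = 0.0409 and adjusted p = 0.506 with Benjamini-Hochberg adjustment. Its unadjusted p was above 0.05 without 12 h p.r. replicate 1, 2 or 4, without NC replicate 1, 2 or 4, with the skeletal muscle covariate, with a replicate block and by limma. *Comp*, cartilage oligomeric matrix protein, was at 1437 ± 872 CPM at 12 h p.r. and 948 ± 388 CPM in NC (SD, n = 4 each), a log2 fold change of 0.60 (SE 0.58). *Comp* stood at 238 CPM in 12 h p.r. replicate 3 and between 1348 and 2134 CPM in its 3 companions.

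In the CCN family, which couples matrix adhesion to growth factor signals, 2 of 6 genes tested had an unadjusted p under 0.05 by edgeR, both lower, where 9.51 percent of all genes passed in either direction and 4.08 percent as lower. *Ccn1*, named here after its values were seen, lay in the other direction, at a log2 fold change of 0.65 (SE 0.31) with edgeR unadjusted p = 0.0684, and its unadjusted p was under 0.05 in DESeq2. *Ccn2*, connective tissue growth factor, was measured at 918, 964, 303 and 939 CPM in the run rats and at 1442, 1121, 1162 and 2098 CPM in NC, and every run rat lay below every NC rat. Its log2 fold change was −0.90 (SE 0.37), edgeR unadjusted p = 0.0362 and adjusted p = 0.498 with Benjamini-Hochberg adjustment, and its unadjusted p was above 0.05 without NC replicate 1 or 4. *Ccn3* was at 81.0 ± 16.6 CPM at 12 h p.r. and 134 ± 40.7 CPM in NC (SD, n = 4 each), a log2 fold change of −0.73 (SE 0.22), edgeR unadjusted p = 0.00995.

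The elastic fibre protein gene *Fbln5* (fibulin 5) was at 45.3 ± 5.02 CPM at 12 h p.r. and 60.1 ± 6.22 CPM in NC (SD, n = 4 each), a log2 fold change of −0.41 (SE 0.11), edgeR unadjusted p = 0.00474. *Sdc4*, the syndecan that binds fibronectin beside integrins, was at 30.5 ± 11.1 CPM at 12 h p.r. and 52.2 ± 14.0 CPM in NC (SD, n = 4 each), a log2 fold change of −0.78 (SE 0.28), edgeR unadjusted p = 0.0227, which was above 0.05 without 12 h p.r. replicate 1 or NC replicate 4. *Sdc4* was the only 1 of 13 receptor genes tested with an edgeR unadjusted p under 0.05 (7.69 percent), where 9.51 percent of all genes passed. The most highly expressed receptor gene, the integrin subunit *Itgb1*, was at 605 ± 11.8 CPM at 12 h p.r. and 649.5 ± 67.0 CPM in NC, a log2 fold change of −0.10 (SE 0.12).

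Of the most highly expressed relatives in the remaining families, *Fstl1* of the SPARC family had a log2 fold change of −0.01 (SE 0.17) and the fasciclin-domain gene *Tgfbi*, a relative of *Postn*, −0.28 (SE 0.19). *Mfge8*, an integrin-binding glycoprotein, had 0.08 (SE 0.23). Osteopontin (*Spp1*) had a log2 fold change of −0.26 (SE 1.16, 95% interval −2.89 to 2.37). It was measured at 504, 318, 21.7 and 493 CPM in the run rats and at 63.6, 109, 1377 and 55.7 CPM in the NC rats. Its edgeR unadjusted p was above 0.05 with all rats, but under 0.05 without NC replicate 3 and without both rats numbered 3.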

How the data were processed

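RNA from the right Achilles tendon of 4 rats at 12 h p.r. and 4 NC rats was sequenced as stranded poly(A) libraries, 1 per rat. The deposited tables hold raw read counts per gene and FPKM values made by the authors, whose processing notes name HISAT2 2.1.0, featureCounts 1.6.3, DESeq2 1.30.1 and the genome Rnor_6.0. The strand and multiple-mapping settings of the counting are not given in the sources used here, so reads shared between overlapping genes may be split. Another deposited table holds the authors' fold changes, p-values and adjusted p-values and was not used. Labels in GEO gave the groups.

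Counts were fitted over the whole table in edgeR 4.0.16 (R 4.3.3; filterByExpr, trimmed-mean scaling, quasi-likelihood test), with p adjusted by Benjamini-Hochberg across 13937 genes and a threshold of 0.05. The SE came from the F statistic and the 95% interval from its degrees of freedom. Single values were also tested by exact 2-sided permutation of log2(CPM + 0.5) over 70 splits. The pattern of each gene across rats was described on log2 CPM (prior count 2). Alternatives used DESeq2 1.42.0 and limma 3.58.1 (on FPKM with a pseudocount of 1 or 0.1). The edgeR script was tested on simulated data. Between groups, p-values set a difference against the variation among the rats of these groups. Sign-flip p-values concern a ratio of genes within rats, and those of correlations the pairing of values across rats. The total of assigned reads per library, between 7350509 and 12951397, sets the counting precision.

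The genes, the wider list and the marker lists were chosen with earlier results of these data known. Named genes were all members of the set, every gene of the wider list with an unadjusted p under 0.05, the most highly expressed gene (mean FPKM) of each of its families, and the 3 genes most alike to each member. *Tnxb* was not analysed here, so 28 pairs and 7 neighbours were compared in place of the 36 and 8 planned. Of the wider list, *Tnr*, *Tnn*, *Spock1* and *Spock3* fell below the filter. The replicate numbers did not pair the rats (r of same-numbered deviations −0.19 to 0.12).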

Additional observations from a re-analysis of the deposited data

Results flagged for a closer look

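Each of the 8 genes, each relative named by rule and each marker mean was searched in each group, which gave 54 groups of 4 values. In 7 of them 1 rat's gap to the nearest other, relative to the group's range, passed Dixon's 95% critical value. For independent groups chance gives about 1 in 20, or 2.7. The same rats recur in all of these groups and some relatives were named for their p, so the 2.7 is only a rough guide. In 4 of the 7 that rat was 12 h p.r. replicate 3, always as the lowest. Its log2 CPM was 13.83 for *Sparc* (next lowest run rat 14.68), 9.45 for *Sparcl1* (9.75), 8.24 for *Ccn2* (9.84) and 4.45 for *Spp1* (8.31). NC replicate 2 was the lowest NC rat in *Fstl1*, at 7.87 on the log2 CPM scale against 8.48 in the next, and in the leukocyte marker mean, at 5.17 against 6.16. NC replicate 3 was the highest NC rat in the cartilage and bone marker mean, at 6.44 against 3.09.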

How the results depend on the processing

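After adjustment 0 of the 8 genes and 0 of the 41 relatives passed under each of the 21 alternatives. Few genes passed at all in these fits. Over all genes 96 passed under DESeq2 and at most 2 under any other alternative. These counts therefore say little about the 8 genes or the relatives in particular. The count of the 8 genes at an unadjusted p under 0.05, 2 by edgeR, was 0 without both rats highest in cartilage and bone markers and 1 with the leukocyte marker mean as a covariate, both alternatives chosen after seeing the data. It lay between 0 and 3 with 1 rat left out (0 without NC replicate 1, 3 without NC replicate 2). Of all genes 7.63 percent passed without both cartilage and bone rats and 9.52 percent with the leukocyte covariate. With 1 rat left out between 6.28 and 11.1 percent of all genes did. For the wider list the count, 5, was 12 without both rats numbered 3 and 8 with the leukocyte covariate. Of all genes 10.8 and 9.52 percent passed in the same fits. With 1 rat left out the count of the wider list lay between 2 (without NC replicate 4) and 10 (without 12 h p.r. replicate 3). It was 3 without NC replicate 1 and 8 without NC replicate 3.

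The log2 fold change changed sign for 3 genes and the cause was not tested. For *Tnc* (−0.03) it was 0.30 without both rats numbered 3, 0.076 without both cartilage and bone rats, 0.037 with the leukocyte covariate, and −0.17 to 0.15 with 1 rat left out. For *Sparc* (−0.05) it was 0.17 without both rats numbered 3, 0.022 with the leukocyte covariate, and −0.14 to 0.12. For *Thbs2* (0.09) it was −0.12 and −0.13 by limma on log2(FPKM + 1) and log2(FPKM + 0.1), −0.13 and −0.36 with the muscle or tenocyte marker mean as a covariate, and −0.17 to 0.40. With 1 rat left out the others lay at −1.03 to −0.23 (*Fn1*), −1.06 to −0.58 (*Postn*), −0.38 to −0.21 (*Sparcl1*), 0.57 to 1.18 (*Thbs1*) and −0.66 to −0.35 (*Thbs3*).

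The replicate numbers did not pair the rats. With a replicate block 6.99 percent of all genes had an unadjusted p under 0.05. The count of the 8 genes was then 1, *Thbs3* (edgeR unadjusted p = 0.0136), that of the wider list was 4, and *Thbs2* was at −0.062. In place of NC, the 12 h p.r. rats gave mean FPKM of 300.2 for *Sparcl1*, 60.5 for *Thbs1* and 14.3 for *Thbs3*, each more than 1 SD of the NC rats from the NC mean. On deviations from the group means 1 pair of genes, *Thbs1* with *Thbs2*, passed after adjustment. That test permuted the deviations over all rats, although those of a group depend on its own mean, so its p may be too small. With 4 rats a group and within-group SDs up to 0.93 on the log2 scale, intervals of *Fn1*, *Thbs1* and *Thbs2* span more than 2 log2 units.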
